A study of Danio rerio with 20 samples.

Results

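The genes described here are the zebrafish chromatin remodellers and histone-modifying enzymes. They were chosen by name, as every row of the deposited tables whose symbol starts with smarc, arid1, arid2, chd, hdac, sirt, kmt2, kdm, ezh1 or ezh2, with a digit after chd, hdac, sirt and kdm. This gave 81 of 31743 genes, all protein coding. Grouped by name, 16 encode subunits of the BAF and PBAF remodelling complexes, 5 encode ISWI or other SNF2-type ATPases, 11 CHD remodellers, 13 histone deacetylases, 7 sirtuins, 7 KMT2 methyltransferases, 20 lysine demethylases and 2 EZH methyltransferases. The deposited tables hold hdac8 as 2 rows, hdac8_1 and hdac8_2, which were kept apart. A row named SMARCA4 in capitals, with 6 reads in all libraries, lies outside the naming rule.

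RNA came from sorted zebrafish oligodendrocyte precursor cells (OPCs, the glial progenitors of myelin-forming oligodendrocytes) and was read by sequencing of transcript 3′ ends. The 20 libraries make 4 groups of 5. One group was treated with 4-aminopyridine (4AP), a blocker of potassium channels, and one was demyelinated by capsaicin acting on the cation channel TRPV1, and each has its own control group. Treatment lasted 16 h. The fish line, the cells that carry TRPV1, the markers used for the sort, the age of the fish and what each control received are not given in the sources used here. Nothing in the labels says that replicates came from separate fish or pools, so p-values measure the spread between these libraries, which may be technical.

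Chromatin remodellers use ATP to slide, evict or exchange nucleosomes, while histone-modifying enzymes add or remove acetyl and methyl groups on histone tails. KMT2 enzymes write an active methyl mark at promoters and enhancers, EZH enzymes write the repressive polycomb mark, KDM enzymes erase methyl marks, and HDACs and sirtuins remove acetyl groups. In mice, the BAF ATPase Smarca4 (Brg1), the remodellers Chd7 and Chd8 and the deacetylases Hdac1, Hdac2 and Hdac3 are known to act in the step from OPC to oligodendrocyte.

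Libraries held 163158 to 897620 gene reads (4AP controls), 356494 to 1744483 (4AP), 1180 to 282966 (demyelination controls) and 38314 to 3528970 (demyelination), and the library of 1180 reads, demyelination control 1, held 6 reads of the 81 genes. A prefix in the names of the deposited tables, whose meaning is not given in the sources used here, splits the libraries into P1 (4AP controls 1 to 4), P2 (4AP control 5 with all 5 4AP libraries) and P3 (the demyelination experiment). The prefix is therefore nearly the same split as the 4AP treatment. As counts scaled to a common library total of gene reads (CPM), the 7 OPC markers summed to 247 to 509 for the 4AP controls, 689 to 893 for 4AP, 0 to 666 for demyelination controls and 287 to 601 for demyelination. The 11 pancreatic enzyme genes looked for as a sign of other cells summed to 10578 to 27395, 5274 to 11871, 6241 to 7627 and 5107 to 16998 CPM in the same order. Mature oligodendrocyte markers (7 genes) summed to 519 to 1189, 842 to 1800, 0 to 2668 and 279 to 1371 CPM, and neuronal markers (9 genes) to 290 to 655, 519 to 743, 0 to 809 and 406 to 1253. Microglial and macrophage markers (9 genes) summed to 535 to 1488, 468 to 610, 618 to 847 and 321 to 789 CPM, and radial glial markers (9 genes) to 1391 to 2282, 1372 to 2260, 0 to 1614 and 595 to 4428. All listed markers were found in the tables, and within a group the defining markers at 0 in all 5 libraries were cela1.1 (pancreas) in the 4AP controls and cd74b (microglia) in the demyelination controls. In 4AP against its control, edgeR called 2 of 7 OPC markers higher, and it called lower 7 of 10 pancreatic, 2 of 3 microglial, 2 of 7 radial glial and 1 of 5 neuronal markers tested. Of all 5161 genes tested it called 2.98% higher and 10.1% lower. Of the 7 mature oligodendrocyte markers it called 0. The part that other cells had in the results below was not tested.

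Every one of the 81 genes had a read in at least 1 library, and together they held 30811 reads. Demyelination 5, the deepest library, gave 11350 of them, or 36.8%. In each of the 5 4AP libraries 77 to 81 genes were detected, against 46 to 55 in 4AP controls 1 to 4 and 78 in 4AP control 5. Demyelination controls 3 and 4 had fewer reads than any 4AP control, 121069 and 109946, but with 69 and 66 members detected they were above 4AP controls 1 to 4. The same order held over all genes. Those with a read numbered 13630 and 12644 in demyelination controls 3 and 4 and 9750 to 11048 in 4AP controls 1 to 4. There were 20281 in 4AP control 5 and 17096 to 22644 in the 4AP libraries. Among the demyelination libraries 34 to 59 members were detected in replicates 1 to 4 and all 81 in replicate 5, and over all genes 7591 to 11027 and 25333.

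Of the members' reads, 46.5% lay in introns, against 32% over all genes. The members are long genes, with a median length of 37275 bases against 13895.5 for all genes with a read. The intron share was 68.4% for sirtuins, 62.8% for HDACs, 54.4% for KMT2 enzymes, 42.3% for demethylases, 38.2% for BAF subunits, 37.2% for CHD remodellers, 33.7% for the ISWI group and 28.0% for the EZH pair. By gene, the highest share was 95.6%, at hdac11, from 113 reads. Next came hdac4 (ENSDARG00000098349), which encodes a class IIa deacetylase. It spans chromosome 9 from 45884031 to 46276626 on the minus strand (GRCz11, the build in the submitters' processing notes, coordinates of the deposited tables). It is 392596 bases long and had the most reads of any member, 2319, of which 95.2% were intronic. At the other end, hdac1, a class I deacetylase gene of 13131 bases, had 1074 reads with 4.38% in introns, and chd4b, which encodes the ATPase of the NuRD complex, had 952 with 6.30%. In all, 17 of the 81 genes overlap another gene, 5 of them on the same strand. Whether counting used strand is not given in the sources used here, so reads of chd5 and rpl22, of kdm6a and BX572627.1, or of sirt3 and drd4b may have been shared.

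**Figure D1:**
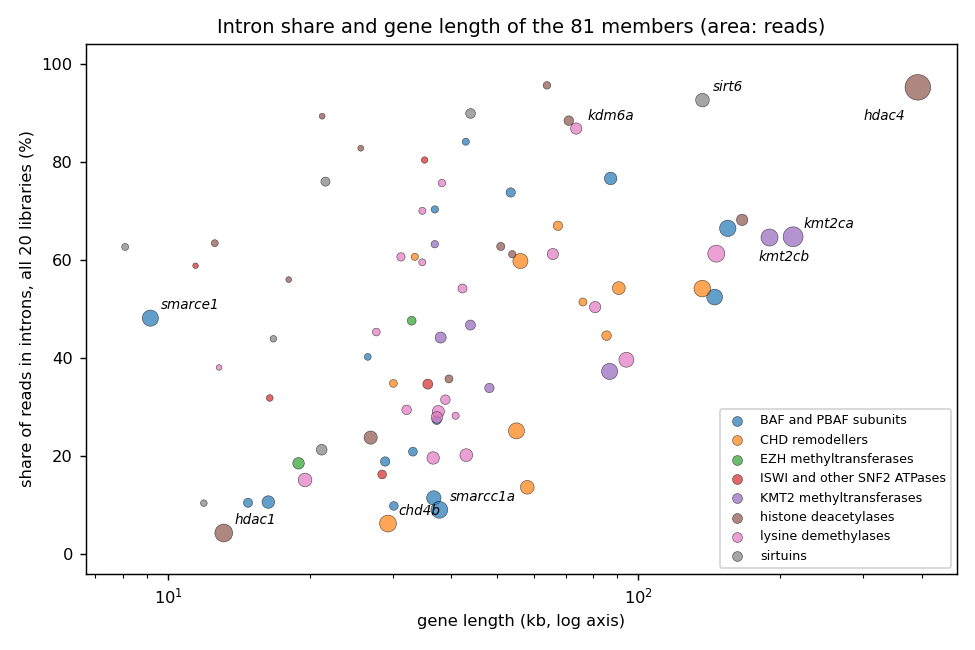
Intron share of each member's reads over all 20 libraries (y axis, percent) against gene length (x axis, kb, log scale), with 1 circle a gene, area by reads and colour by class. hdac4, at 95.2%, is the longest gene and holds the most reads, while hdac1 and chd4b lie under 10%.

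The summed level of the 81 genes was 1431, 1211, 1632, 1594 and 2326 CPM in 4AP controls 1 to 5. In 4AP replicates 1 to 5 it was 2684, 2587, 2943, 2778 and 2668 CPM. On this scale all 5 4AP libraries were above all 5 controls, and control 5 was the nearest to them. The group means were 2732 and 1639, a ratio of 1.67, which became 1.17 when 4AP was set against control 5 alone and 1.35 when libraries were scaled by TMM (a scaling that aligns the bulk of genes) in place of their totals. With TMM the groups overlapped, control 5 at 2634 and 4AP 2 at 2601. In bulk RNA a change in the share of a cell type and a change in RNA per cell cannot be told apart.

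In the demyelination experiment the same sum was 2590, 2825, 2956 and 2655 CPM in controls 2 to 5, and 5085 CPM in control 1, where it rests on 6 reads. Demyelination replicates 1 to 5 had 2108, 2506, 2751, 2153 and 3216 CPM. The groups overlapped, with replicate 5 the highest library of the experiment after control 1, and the ratio of means without control 1 was 0.924. With TMM the sums were 3600, 3769, 6303, 3971 and 5505 in demyelination 1 to 5 and 3879, 3956, 4258 and 3985 in controls 2 to 5. The groups again overlapped, but the demyelination mean was then above that of controls 2 to 5. By library totals the 4 P1 libraries were the lowest of all 20, and the other 16 lay between 2108 and 5085 CPM.

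**Figure D2:**
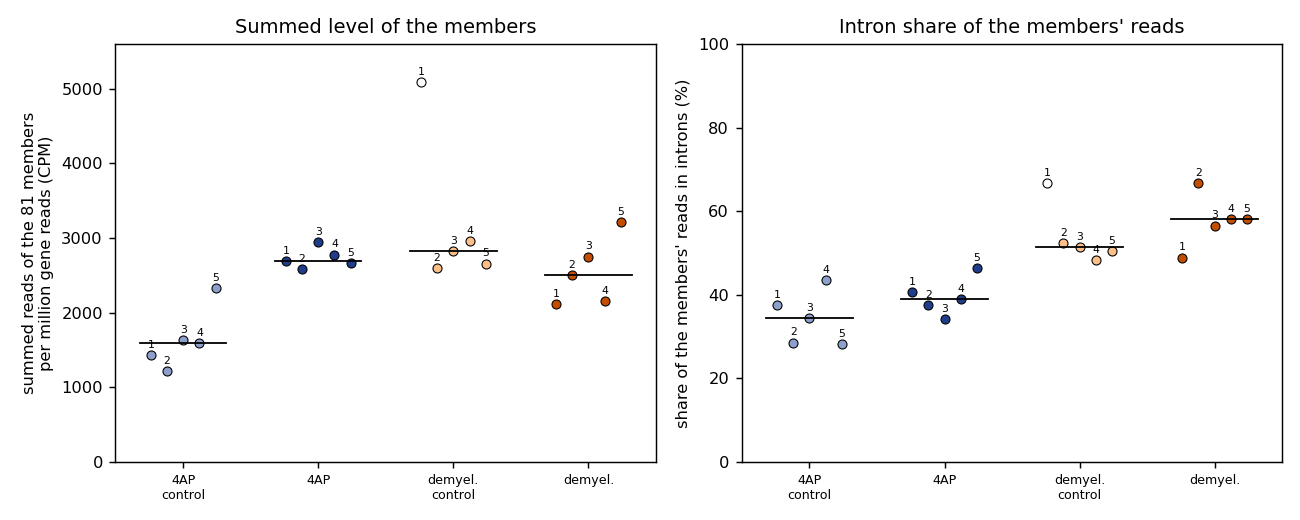
Left, summed CPM of the 81 genes in each library, and right, the percent of their reads in introns, for the 4 groups, with 1 point a library labelled by replicate number, a black line at the group median and an open point for demyelination control 1 (6 reads). 4AP controls 1 to 4 are the lowest libraries in the left panel, at 1211 to 1632 CPM.

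The intron share of the members' own reads was 37.6, 28.5, 34.4, 43.5 and 28.1% in 4AP controls 1 to 5 and 40.5, 37.5, 34.2, 38.9 and 46.3% in 4AP 1 to 5. These ranges overlapped. In controls 2 to 5 of the demyelination experiment it was 52.3, 51.5, 48.3 and 50.3%, and in demyelination 1 to 5 it was 48.8, 66.7, 56.5, 58.1 and 58.1%. Every P3 library was thus above every library of the 4AP experiment. Over all genes the mean intron share was 26.5% for 4AP (SD 2.14, n = 5) and 33.3% for its control (SD 7.36), with control 5 the lowest library at 20.5%. The exact permutation p, two-sided, was 0.0873, or 0.175 adjusted over the 2 experiments, where the smallest possible was 0.00794. For demyelination the mean was 38.5% (SD 2.16, n = 5) and for its control 38.8% (SD 2.62), with an exact permutation p of 0.841. Without 4AP control 5 the difference was −10.0 percentage points (exact permutation p = 0.0159, the smallest possible with the libraries left). Treatment and prefix are then the same split and cannot be told apart.

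By class, the KMT2 methyltransferases and the lysine demethylases did not overlap between 4AP and its control, whether scaled by library totals or by TMM. On exon reads alone the KMT2 sums did overlap, with 123 and 136 CPM in 4AP controls 4 and 5 and 121 in 4AP 1. The 7 KMT2 genes summed to 77.3, 54.1, 108, 227 and 256 CPM in 4AP controls 1 to 5 and to 342, 334, 364, 340 and 413 CPM in 4AP 1 to 5. No control reached the 4AP range, and controls 4 and 5 stood above the other 3. The ratio of means was 2.48, or 1.40 against control 5 alone. The 20 demethylase genes summed to 256, 301, 255, 282 and 421 CPM in the controls and to 583, 591, 591, 611 and 595 CPM in 4AP, again without overlap, with a ratio of 1.96, or 1.41 against control 5 alone. The 7 sirtuin genes summed to 43.3, 37.2, 104, 91.9 and 93.6 CPM in the controls and to 137, 128, 126, 154 and 141 CPM in 4AP, with a ratio of 1.86, or 1.47 against control 5 alone. Here controls 3 to 5 lay together under the 4AP libraries, but with TMM control 3 (122) was above 4AP 3 (119).

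In the other classes 4AP and control libraries overlapped. CHD remodellers had a ratio of 1.99, or 1.05 against control 5 alone. BAF and PBAF subunits had a ratio of 1.51 (1.02 against control 5), EZH genes 1.72 (0.883, and 2.95 on exon but 0.641 on intron reads) and HDACs 1.20 (1.15), while the ISWI group was lower in 4AP at 0.716 (1.07). With TMM scaling the HDAC ratio was 0.969. In demyelination against controls 2 to 5 the class ratios ran from 0.738 for sirtuins to 1.08 for KMT2 enzymes, and group ranges overlapped in every class. Exon and intron reads did not move alike: scaled to the library's exon reads HDACs had a 4AP ratio of 0.859 and scaled to its intron reads 1.98, and the BAF group 1.25 and 2.28.

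**Figure D3:**
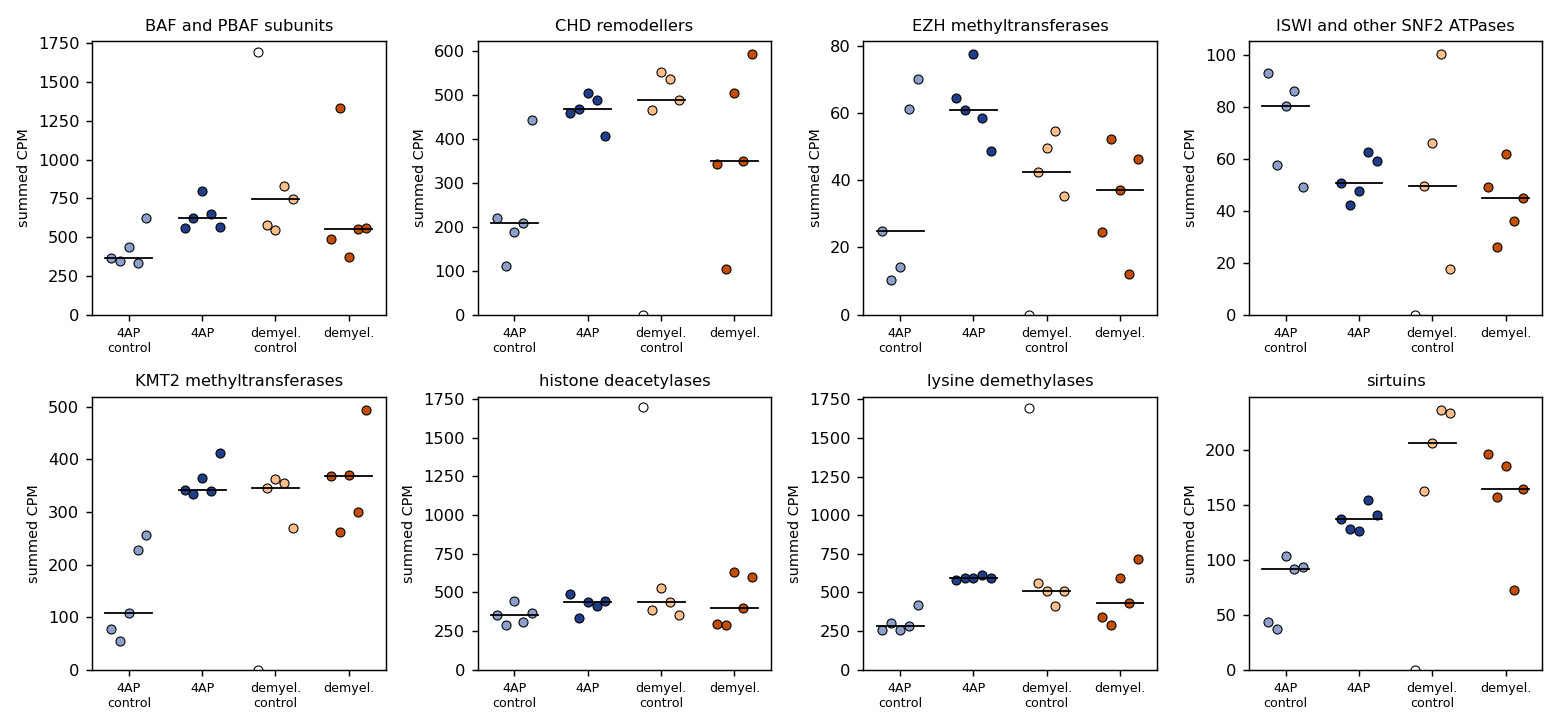
Summed CPM of each of the 8 classes in every library, 1 panel a class, with 1 point a library, a black line at the group median and an open point for demyelination control 1. KMT2 enzymes (334 to 413 CPM in 4AP, at most 256 in its controls), lysine demethylases (583 to 611 against at most 421) and sirtuins (126 to 154 against at most 104) do not overlap between 4AP and its control on this scale, though the sirtuins do with TMM.

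The first comparison asks how 4AP, a treatment that raises neuronal activity, altered OPC transcripts. Of the 81 genes, 40 had enough reads to be tested and 41 did not. The 40 tested had 209 to 2319 reads over all libraries, and the 41 others 17 to 241. In all, 40 of the 81 were tested in none of the 3 comparisons below. Among the 40, edgeR's quasi-likelihood test called 2 higher (kdm6a and kmt2ca) and 1 lower (smarca1) at an adjusted p under 0.05. These 3 are 7.5% of those tested, against 13.1% of all 5161 genes tested (2.98% higher and 10.1% lower). At an unadjusted p under 0.05 there were 11, 9 of them higher, against 33.2% of all genes tested. The median log2 fold change was 0.57 for the 40 and 0.19 for all genes, with 28 above 0 and 12 below. Groups did not overlap at 6 members, all higher in 4AP (chd9, kmt2bb, kmt2ca, kdm2bb, kdm6a and sirt3), against 5.95% of all genes tested that were higher without overlap. sirt3 had 0 reads in 4AP controls 1 to 4, kdm6a 4, 0, 0 and 0, and kdm2bb 1, 1, 0 and 0. kmt2ca had 2, 2, 3 and 4 reads in these controls, kmt2bb 4, 0, 2 and 2, and chd9 4, 4, 7 and 3. All 6 thus passed the filter through the 4AP libraries. hdac8_2, with 9, 22, 12 and 7 reads in 4AP controls 1 to 4, did not pass. The direction of the 6, among them both genes called higher, and the split of 28 and 12 thus depend in part on the filter.

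**Figure D4:**
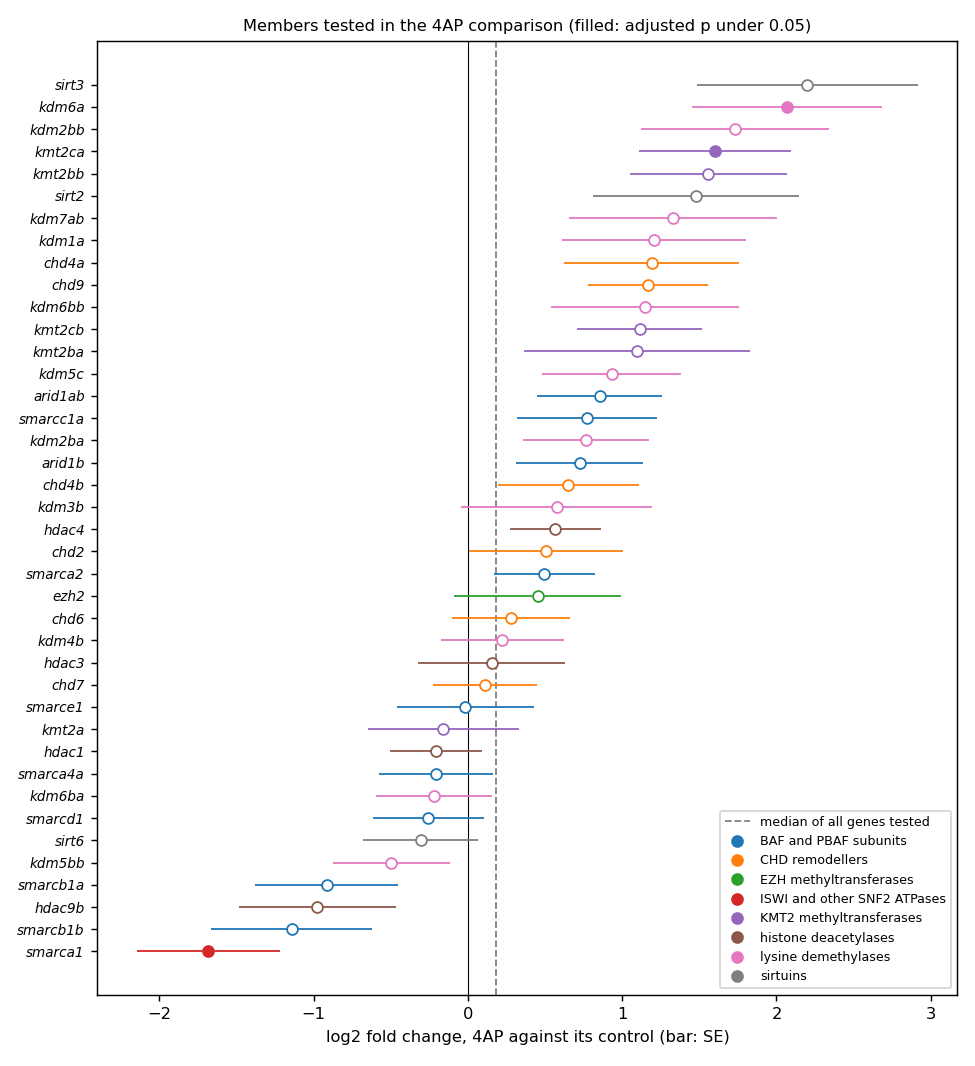
Log2 fold change of each of the 40 members tested, 4AP against its control (x axis, bar 1 SE), ordered by size, with filled points for the 3 called genes and a dashed line at the median of all genes tested, 0.19. sirt3 (2.2) and kdm6a (2.07) lie at the top and smarca1 (−1.68) at the bottom.

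kdm6a (ENSDARG00000061759) encodes a demethylase (UTX) that removes the repressive mark laid down by EZH enzymes, and lies on chromosome 9 from 33788389 to 33862124 on the plus strand. Its reads were 4, 0, 0, 0 and 10 in 4AP controls 1 to 5 and 13, 45, 23, 52 and 29 in 4AP 1 to 5. As TMM-normalised CPM this was 16.8, 0, 0, 0 and 12.6 in the controls and 36.2, 40.5, 34.3, 29 and 29.1 in 4AP. All 4AP libraries were above all controls, of which 3 had no read, although 3 reads there would already amount to 10.1 to 18.4 CPM of the library total. The log2 fold change was 2.07 ± 0.62 (SE, edgeR adjusted p = 0.0356). It was not called with the prefix in the model, at 1.40, or with the library total in it, at 1.85. The call was also lost on intron reads (1.64), on unique reads, with a replicate block and in 5 of the 7 fits without 1 library that tested it, at 1.82 to 2.48 in these last 3. Over all libraries 86.8% of its reads were intronic.

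kmt2ca (ENSDARG00000079312) encodes a KMT2C-type (MLL3) methyltransferase of enhancers and lies on chromosome 24 from 7336411 to 7549610 on the plus strand. It had 8.4, 9.1, 16.6, 29.1 and 97.1 normalised CPM in the controls, from 2, 2, 3, 4 and 77 reads, and 103.0, 103.5, 116, 107 and 151 in 4AP, from 37, 115, 78, 191 and 151 reads. Control 5 was far above the other 4 controls and only just under the lowest 4AP library. The log2 fold change was 1.60 ± 0.49 (SE, edgeR adjusted p = 0.0400). This call was lost in 9 of the 10 fits without 1 library. The log2 fold change was 3.06 without control 5. With the prefix as a term it was 0.26 (edgeR adjusted p = 0.999), a value that rests on control 5 as the single control of prefix P2.

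smarca1 (ENSDARG00000012776) encodes an ISWI-type ATPase (SNF2L) and lies on chromosome 5 from 21852714 to 21888368 on the minus strand. It had 96.8, 72.5, 72.0, 87.3 and 15.1 normalised CPM in the controls, from 23, 16, 13, 12 and 12 reads, and 19.5, 14.4, 16.4, 22.3 and 28.1 in 4AP, from 7, 16, 11, 40 and 28 reads. Controls 1 to 4 stood above every 4AP library, while control 5 lay inside the 4AP range. The log2 fold change was −1.68 ± 0.46 (SE, edgeR adjusted p = 0.0269), and with the prefix as a term it was 0.42, of the opposite sign. The call was lost in 8 of the 10 fits without 1 library, and also with library totals, no filter or a replicate block.

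**Figure D5:**
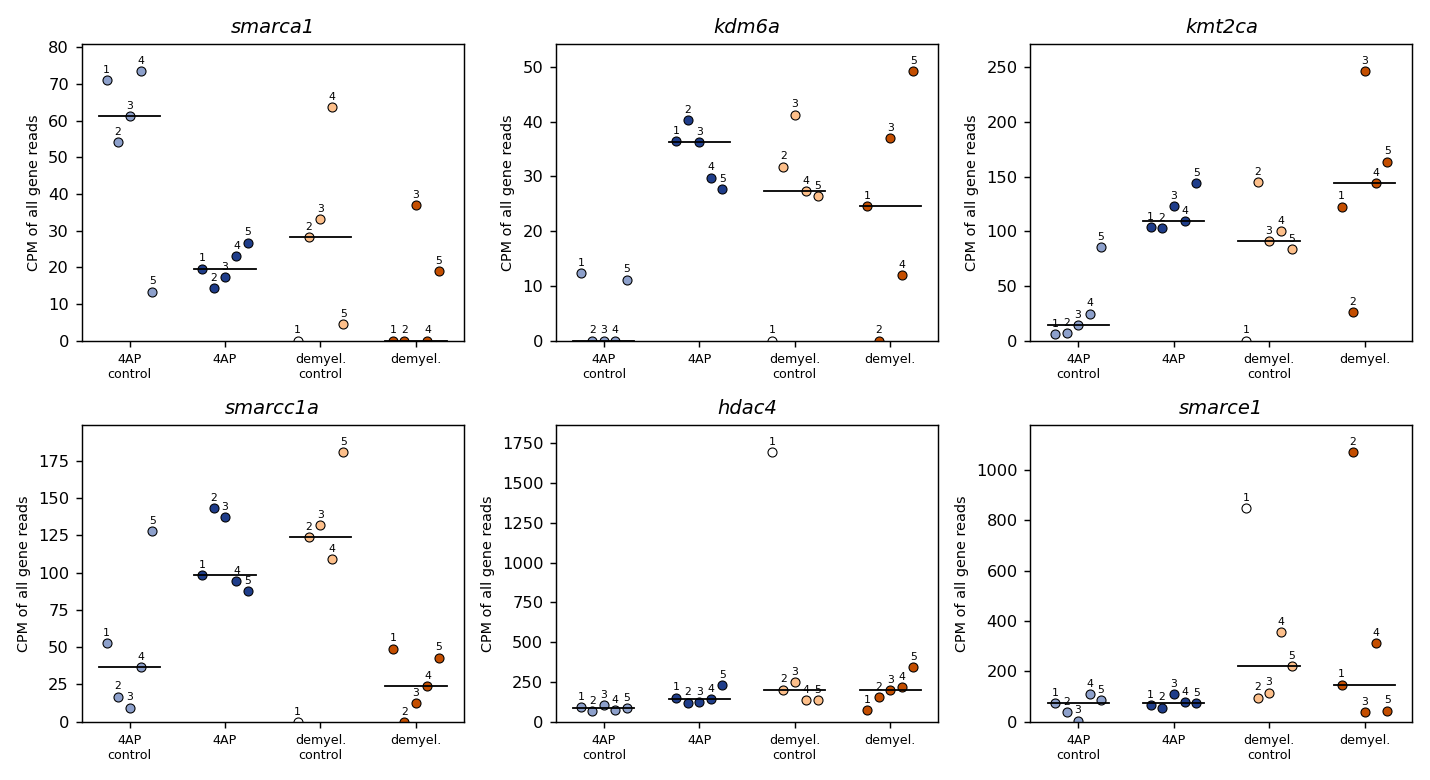
CPM of the library total of 6 named members in every library, 1 panel a gene, with points labelled by replicate number, a black line at the group median and an open point for demyelination control 1. 4AP control 5 lies nearer to the 4AP libraries than to the other 4AP controls for smarca1 and kmt2ca, and with controls 1 to 4 for kdm6a.

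Of the remodellers, 9 of 16 BAF and PBAF genes were tested and none was called, with 4 above 0 and 5 below and a median log2 fold change of −0.02. The 2 genes for the core subunit SMARCB1 had the lowest values, smarcb1b at −1.14 ± 0.52 and smarcb1a at −0.91 ± 0.47 (SE, edgeR adjusted p = 0.135 and 0.176). The ARID1 genes tested were on the positive side, arid1ab at 0.85 and arid1b at 0.72 (edgeR adjusted p = 0.150 and 0.218), while arid1aa was not tested. For smarcb1b control 5, at 12.6 normalised CPM, was below every 4AP library (13.5 to 37.4). For arid1b it was above every one, at 84.5 against 64.1 to 83.6. The signs of smarcb1b and arid1b thus rest on controls 1 to 4. smarce1, which encodes the BAF57 subunit, was at −0.02, and the ATPase genes smarca2 and smarca4a were at 0.50 and −0.21. smarcd1, which encodes a BAF60-type subunit, was at −0.26. For smarce1 an adjusted p of 0.983 does not show that the groups were alike, since its controls ranged from 5.54 to 131 normalised CPM.

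All 6 CHD genes tested had values above 0, with a median of 0.58, and none was called. chd9 came closest at 1.17 ± 0.39 (SE, edgeR adjusted p = 0.0547), with 76.1 to 94.7 normalised CPM in 4AP and 16.8 to 73.2 in the controls. chd7, whose mouse counterpart acts in oligodendrocyte differentiation and remyelination, was at 0.11 ± 0.34, with 66.6 to 106 CPM in 4AP and 36.4 to 105 in the controls. The upper ends of its ranges nearly coincided, while its controls reached lower. chd4a and chd4b were at 1.19 and 0.65, chd2 at 0.51 and chd6 at 0.28. For chd4b control 5, at 116 normalised CPM, was above every 4AP library (55.7 to 111), so its sign rests on controls 1 to 4.

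Among the erasers of acetyl groups, 4 of 13 HDAC genes were tested and none was called. hdac8_2 did not pass the filter. It had 9, 22, 12, 7 and 3 reads in 4AP controls 1 to 5 and 2, 6, 3, 12 and 6 in 4AP 1 to 5, although controls 1 to 4 were shallower than every 4AP library. With no filter it had the smallest p of the 6 members that edgeR called, where 3.84% of all genes were called. It was also the 1 member called without 4AP 1 (7.79% of all genes). hdac1 was at −0.21 ± 0.30, with 87.2 to 132 normalised CPM in 4AP and 88.4 to 206 in the controls, and hdac3, the corepressor-bound class I enzyme, was at 0.15 ± 0.47. The class IIa genes diverged in sign, hdac4 at 0.57 ± 0.29 and hdac9b at −0.97 ± 0.51 (SE, edgeR adjusted p = 0.185 for each). The sign of hdac9b rests on controls 1 to 4, at 25.3 to 111 normalised CPM. Control 5, at 16.4, was below every 4AP library (16.7 to 30.6). hdac4 had 126, 90.7, 122, 87.3 and 95.9 normalised CPM in the controls and 150, 122, 115, 141 and 245 in 4AP, and the groups overlapped, with 4AP 5 above all others. Of the sirtuins, sirt3, which encodes a mitochondrial deacetylase, had the largest value of any member at 2.2 ± 0.72 (SE, edgeR adjusted p = 0.0510), with 19.4 to 50.1 normalised CPM in 4AP and 0 to 16.4 in the controls. Of its reads 89.8% were intronic. sirt2, known in mouse myelin, was at 1.48 (adjusted p = 0.133), and sirt6, a nuclear deacylase, was at −0.31, with 92.6% of its reads in introns.

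Of the lysine demethylases, 11 of 20 were tested, 9 with values above 0, and kdm6a was the 1 called. kdm2bb, a gene for a CpG-binding demethylase, was at 1.73 ± 0.61 (SE, edgeR adjusted p = 0.0641), with 22.3 to 41.4 normalised CPM in 4AP and 0 to 20.2 in the controls. The values of kdm7ab, kdm1a (LSD1), kdm5c, kdm3b and kdm4b were 1.33, 1.21, 0.93, 0.58 and 0.22, none called. kdm5bb and kdm6ba were below 0, at −0.50 and −0.22. kdm6ba, a gene for a JMJD3-type demethylase of the polycomb mark, had the most reads of its class, with 139, 122, 94.1, 50.9 and 35.3 normalised CPM in the controls and 64.1, 76.5, 56.7, 68.0 and 106 in 4AP. Its 4AP libraries lay within the range of its controls, and its sign turned to 0.12 when library totals replaced TMM.

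Among the writers, 5 of 7 KMT2 genes were tested, 4 with values above 0, and kmt2ca was the 1 called. kmt2bb was at 1.56 ± 0.51 (SE, edgeR adjusted p = 0.0507). It had 16.8, 0, 11.1, 14.5 and 56.8 normalised CPM in the controls and 69.6, 81.9, 80.6, 63.6 and 69.1 in 4AP, so the groups did not overlap and control 5 was the control nearest to 4AP. kmt2a, the MLL1-type gene, was at −0.16 ± 0.49. Of the EZH pair 1 gene was tested. ezh2, which encodes the catalytic subunit of polycomb repressive complex 2, was at 0.45 ± 0.54 (adjusted p = 0.560 with edgeR), from 4.2, 13.6, 5.5, 58.2 and 71.9 normalised CPM in the controls and 50.1, 42.3, 62.7, 39.0 and 38.1 in 4AP. Its controls fell on both sides of the 4AP range.

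Both copies of 6 duplicated genes were tested. The copies had the same sign in 5 pairs: chd4a and chd4b at 1.19 and 0.65, kdm2ba and kdm2bb at 0.77 and 1.73, kmt2ba and kmt2bb at 1.1 and 1.56, kmt2ca and kmt2cb at 1.60 and 1.11, and smarcb1a and smarcb1b at −0.91 and −1.14. The kdm6b pair differed, with kdm6bb at 1.15 and kdm6ba at −0.22. No difference between copies was tested. kmt2ba had no read in 4AP controls 1 to 4, but 24 in control 5 and 8 to 41 in 4AP. As normalised CPM control 5, at 30.3, was above every 4AP library (16.4 to 28.1), so its sign rests on controls 1 to 4. The same held for chd4b, with control 5 at 116 and 4AP at 55.7 to 111. For smarcb1b control 5, at 12.6, was below every 4AP library (13.5 to 37.4), so its sign too rests on controls 1 to 4. kmt2cb, at 1.11 ± 0.40 (SE, edgeR adjusted p = 0.0728), had 71.1 to 114 normalised CPM in 4AP and 11.1 to 80.0 in the controls.

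4AP control 5, the control that shares prefix P2 with the 4AP libraries, moved with these results. It lay inside the range of the 5 4AP libraries at 20 of the 40 members, or 50%, against 64.6% of all genes tested, and nearer to the 4AP mean than to the mean of controls 1 to 4 at 31 (77.5%, against 75.7% of all genes). On log2 of normalised CPM plus 1, the median of 4AP over control 5 was 0.22 for the members and 0.03 for all genes, and that of control 5 over controls 1 to 4 was 0.72 and 0.17. Without control 5, edgeR called 17 of 33 members tested, 14 of them higher, against 48.9% of all genes. With the prefix as a term, or log2 of the library total as a term, it called 0 members and 0.0% of all genes in each case. Beyond control 5, treatment and prefix cannot be told apart.

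Intron-rich genes had higher values as a whole. Among all genes with at least 50% of their reads in introns, the median log2 fold change was 0.61 (1527 genes), and among the rest −0.02 (3634 genes). The 15 intron-rich members had a median of 0.85 and the 25 others 0.45. In tests on exon reads alone 0 of 27 members were called, against 5.66% of all genes, and on intron reads alone 0 of 12, against 11.4%. kmt2ca gave 1.25 on exon reads and 1.29 on intron reads (edgeR adjusted p = 0.164 and 0.117).

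The second comparison set demyelination against its control. Only 3 of the 81 genes had enough reads, and edgeR called 0 of them, with 0 at an unadjusted p under 0.05, and DESeq2 and voom also called 0. Over all 823 genes tested 0.0% were called and 9.48% had an unadjusted p under 0.05. kmt2ca was at 0.87 ± 0.44, smarce1 at 0.76 ± 0.81 and hdac4 at 0.42 ± 0.45 (SE, edgeR adjusted p = 0.459, 0.745 and 0.737), beside a median of 0.21 over all genes tested.

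kmt2ca had 217, 127, 144 and 126 normalised CPM in demyelination controls 2 to 5, from 41, 11, 11 and 19 reads, and none of the 1180 reads of control 1. Demyelination 1 to 5 had 209, 39.3, 565, 266 and 280, from 5, 1, 20, 12 and 578 reads. Demyelination 2 was the lowest of these 9 libraries, replicate 1 lay just under the highest control, and the other 3 were above all controls. hdac4 had 302, 347, 197 and 205 normalised CPM in controls 2 to 5, 925 in control 1 from 2 reads, and 126, 236, 452, 399 and 591 in demyelination 1 to 5, again with overlap.

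smarce1 did not follow depth. It had 27, 14, 39 and 50 reads in controls 2 to 5, and 6, 41, 3, 26 and 155 in demyelination 1 to 5. In demyelination 2, a library of 38314 reads, that is 1070 CPM of the library total, against 43.9 in demyelination 5 with 3528970 reads. Of the 41 reads 39 were intronic, and of the 155 in demyelination 5, 52 were. This gene made up most of the BAF and PBAF sum of demyelination 2, 51 reads or 1331 CPM, which the other 4 demyelination libraries did not reach (370 to 559 CPM).

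smarcc1a (ENSDARG00000017397), which encodes the BAF155 core subunit and lies on chromosome 16 from 42423530 to 42461263 on the minus strand, did not pass the filter in this comparison. Its reads were 0, 35, 16, 12 and 41 in demyelination controls 1 to 5 and 2, 0, 1, 2 and 152 in demyelination 1 to 5. As CPM of the library total this was 124, 132, 109 and 181 in controls 2 to 5 and 49.0, 0, 12.3, 24.1 and 43.1 in demyelination 1 to 5. Controls 2 to 5 were all above the 5 demyelination libraries, with no overlap. With no filter, edgeR gave −2.18 ± 0.59 (SE, unadjusted p = 0.000211, adjusted p = 0.271), and without control 1 it gave −1.78 ± 0.41 (SE, adjusted p = 0.333). Neither passed the adjustment.

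The third comparison took the 4AP response minus the demyelination response over all 20 libraries. Of 31 members tested, edgeR called 1, smarcc1a, higher, against 1.66% of all 3981 genes tested (0.352% higher). At an unadjusted p under 0.05 there were 2, smarcc1a and kdm2ba (1.39, adjusted p = 0.282), against 16.4% of all genes. The median difference was 0.32 for the members and 0.03 for all genes, with 21 above 0 and 10 below.

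The difference at smarcc1a was 2.69 ± 0.69 on the log2 scale (SE, edgeR adjusted p = 0.0428). It joins the lower values in demyelination, given above, to 4AP values of 98.2, 143, 138, 94.6 and 87.7 CPM of the library total and control values of 52.5, 16.9, 9.43, 36.8 and 128. In the 4AP experiment controls 1 to 4 were below every 4AP library, and control 5 was inside the 4AP range by library totals. With TMM, the scaling of the fit, control 5 was above every 4AP library, at 145 against 92.0 to 144. The sign of the 4AP part thus rests on controls 1 to 4. In 4AP alone smarcc1a was at 0.77 ± 0.45 (SE, edgeR adjusted p = 0.235). With the prefix as a term the difference was 1.51 (edgeR adjusted p = 0.9997), and 16 of the 20 fits that left out 1 library did not call it, at values of 2.50 to 3.44. Most of its reads were exonic, with 9.10% in introns over all libraries, and on exon reads the difference was 2.88 (adjusted p = 0.0396).

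A wider list of chromatin genes outside the naming rule, such as partners of BAF, NuRD and polycomb complexes, acetyltransferases, DNA methylation enzymes and readers, held 101 genes found in the tables. In the 4AP comparison 34 were tested and 2 were called, or 5.88% against 13.1% of all genes tested. pbrm1, which encodes the polybromo subunit of PBAF, was lower at −2.21 ± 0.42 (SE, edgeR adjusted p = 0.00430), and 98.1% of its counts were intronic. It had 355, 382, 344, 441 and 72.4 CPM of the library total in 4AP controls 1 to 5 and 75.7, 77, 50.6, 109 and 112 in 4AP 1 to 5. Control 5 was inside the 4AP range, as for smarca1. crebbpb, which encodes a CBP-type acetyltransferase, was higher at 1.18 ± 0.36 (SE, edgeR adjusted p = 0.0378), with 50.5 to 80.6 CPM in 4AP and 10.1 to 32.3 in the controls, without overlap. The median of the 34 was 0.56, against 0.19 for all genes, and 24 were above 0. In demyelination 3 were tested and 0 called, and in the third comparison 23 were tested and pbrm1 was called lower (−2.27 ± 0.60, SE, edgeR adjusted p = 0.0428).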

How the data were processed

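Each deposited table lists 31743 genes with exon, intron, total and unique read counts, per the file headers, and total reads equalled exon plus intron reads in all 20. Libraries were made with a 3′ transcript kit from 1 ng or 4 ng of RNA, per the labels' protocols, and the genome build GRCz11 is named in the submitters' processing notes. The aligner, the strand setting and the use of molecular identifiers are not given in the sources used here, so limits for 0 reads (3 reads) cover counting error only. Total gene read counts, as deposited by the authors, were tested with edgeR's robust quasi-likelihood test (edgeR 4.0.16, limma 3.58.1, R 4.3.3) on all genes that passed filterByExpr (minimum count 10, minimum total 15) after TMM scaling. The filter acts on both groups together, so counts and medians cover only members that passed. A member can pass through the group where it is high, so directions among those tested are not free of the filter. P-values were adjusted by Benjamini-Hochberg over all genes tested and called under 0.05. The difference of the responses used 1 coefficient per group over 20 libraries. SE is the log2 fold change divided by the square root of F. CPM is reads scaled to a common total of gene reads, and normalised CPM uses the TMM factors of its experiment. Sums over members got no test, and 3′ reads were not scaled by length. Intron shares of libraries were compared by a two-sided exact permutation test over 252 splits (scipy 1.17.1). Gene and exon length are the authors' deposited values. No reference sequence was used, so no sequence is shown. The fits were checked on simulated data.

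Named were members called, the 3 smallest p-values where 0 were called, the member with most reads in each class, pairs of copies tested for 4AP, and called genes of the wider list. The members, lists and rules were chosen with earlier results of these data known. chd9, sirt3 and other members given with values were chosen after their values were seen. Alternatives were DESeq2 1.42.0 (size factors or Wald test), library totals, voom with quality weights, no filter, 10 reads in every library of a group, exon, intron or unique reads, a replicate block, the library total or prefix as a term, a threshold of 0.01, and leaving out each library. Of 40 pairs of libraries within groups, 39 differed by more than sampling noise. The exception was demyelination controls 1 and 2, where control 1 is too shallow to tell, and both were kept.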

Additional observations from a re-analysis of the deposited data

Results flagged for a closer look

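A library was marked where its gap to the nearest library of its group of 5 was large against the group's range (Dixon's test). Of 84 such series of values 14 were marked, and chance marks about 1 in 20.

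Of these, 8 were demyelination control 1, the library with 6 reads of the members. Its sums were 1695 CPM for BAF and PBAF subunits, 1695 for HDACs, 1695 for lysine demethylases, 0 for CHD remodellers, 0 for KMT2 enzymes and 5085 for all 81 genes. Its members' intron share was 66.7% and its hdac4 level 925 normalised CPM. Each value rests on 0 to 6 reads.

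Demyelination 2 had a BAF and PBAF sum of 1331 CPM against 370 to 559 in the other 4 libraries of its group. 4AP control 5 stood apart from controls 1 to 4 by its demethylase sum of 421 CPM (255 to 301 in the others), its share of all reads in introns of 20.5% (34.3 to 38.5%) and its kmt2ca level of 97.1 normalised CPM (8.4 to 29.1). 4AP 5 stood above the other 4AP libraries for kmt2ca, at 151 normalised CPM (103.0 to 116), and hdac4, at 245 (115 to 150).

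smarcc1a was marked because its responses to 4AP and to demyelination differed by 2.69 on the log2 scale (edgeR adjusted p = 0.0428). In CPM of library totals all 5 4AP libraries were above 4AP controls 1 to 4, but 3 of them were below control 5, and with TMM all 5 were below it. All 5 demyelination libraries were below demyelination controls 2 to 5, and control 1 had 0 reads of it.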

How the results depend on the processing

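In the 4AP comparison 3 members were called. The count was 7 with library totals (all higher), 7 with DESeq2's Wald test and 20 with voom (19 higher), each of 40, and 6 of 81 with no filter, where 11.6, 19.3, 42.5 and 3.84% of all genes were called. It was 0 with exon reads, intron reads, the library total as a term, the prefix as a term or a threshold of 0.01. It was 0 to 17 when single libraries were left out: 17 without 4AP control 5, 1 without 4AP control 1, 4AP 1 or 4AP 5 (5.41, 7.79 and 9.12% of all genes called) and 0 without any of the other 6 (3.94 to 11.8%). The median log2 fold change of the members, 0.57, was 0.89 with library totals, 1.06 with voom, 0.83 on exon reads and 0.22 with the prefix, and 0.45 to 0.71 without single libraries. Library totals moved the median of all genes from 0.19 to 0.49. kmt2ca got no p from DESeq2. In demyelination the count was 0 in every setting run, and the median of the 3 members, 0.76, was 0.29 with voom, −0.00080 with no filter (81 members), 0.30 on intron reads, 0.38 on unique reads, 0.48 with the library total, and 0.47 to 0.86 without single libraries. No member passed the filter there on exon reads or with 10 reads in every library of a group. The difference of the responses had 1 call (1.66% of all genes), 5 with voom (16.2%), 0 on intron reads (4.04%), 0 with the prefix (0.0%) and 0 at 0.01. Without single libraries it had 0 to 5 calls. The 5 came when 4AP control 5 was left out (18.4% of all genes), while 0.075 to 2.97% of all genes were called in the other such fits of the difference. Its median, 0.32, was 0.76 with library totals and 0.72 with no filter, and 0.19 to 0.57 without single libraries.

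The sign turned with the prefix as a term for smarca1 (0.42), chd4b (−0.54), kdm6ba (1.08), kmt2ba (−0.37), smarcb1a (0.28) and smarcb1b (0.82), and for kdm6ba also with library totals (0.12) and exon reads (0.26). smarce1 in demyelination ran from −0.32 to 1.14 without single libraries. Some ratios of class sums moved by more than their spread (the relative SDs of both groups, combined). In 4AP these were BAF (2.03), ISWI (1.43) and HDAC genes (1.62) on intron reads and sirtuins (2.81) on exon reads. In demyelination, with control 1 kept, they were demethylases on intron reads (1.34, from 0.643) and all members with TMM (1.23, from 0.790). Without demyelination control 1 the same ratios were 1.07 (from 0.952) and 1.15 (from 0.924). That control had 2 demethylase reads, 0 of them in introns. The EZH ratio in 4AP, with a wide spread, turned to 0.641 on intron reads and was 2.95 on exon reads. The share of all reads in introns differed by −10.0 to −5.53 percentage points in 4AP and −1.30 to 0.36 in demyelination without single libraries. The causes were not tested.

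Replicate numbers gave no sign of pairing. Correlations of same-numbered deviations ran from −0.04 to 0.10 in the 4AP experiment and from −0.11 to 0.08 in demyelination. In each, 1 of 5 libraries matched its own number best. This check cannot show that pairing was absent. The deviations are from group means, and 4AP control 5 differs in prefix from the other 4AP controls, while demyelination control 1 held 1180 reads. With a replicate block 2 members were called for 4AP (kmt2ca and kmt2bb), against 8.68% of all genes, with a median of 0.89. In demyelination the block gave 0 calls (0.0% of all genes), a median of 0.43 and −0.0040 for smarce1. In the difference a block joined the same-numbered libraries of both experiments. There smarcc1a kept its call, with 2.03% of all genes called. 4AP controls 1 to 4 hold 260 to 463 reads of the members and demyelination 1 to 4 hold 86 to 223.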
